A study of Mus musculus with 2 samples.

Results

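The nuclear genes of mitochondrial complexes II to V were compared between cells of the mouse sinoatrial node that had lost Isl1 and control cells. The genes were taken from the deposited gene table by symbol, as the Sdha to Sdhd, Uqcr, Cox and Atp5 names together with Cyc1 and Cycs, which gave 55 of 12557 genes. By their known roles, 42 of them encode subunits, 4 of complex II, 9 of complex III, 14 of complex IV and 15 of complex V. Another 8 encode assembly factors. The other 5 are Cycs, the mobile cytochrome c, Cox7a2l, a factor of respiratory supercomplexes, and Atp5s, Atp5sl and Cox4nb, whose names match although they encode no subunit. Genes on mitochondrial DNA and the muscle isoform gene Cox8b are not analysed here.

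The study asked which genes of the node depend on Isl1, a LIM-homeodomain transcription factor of pacemaker cells. Both groups were ICR embryos with Hcn4-CreERT2, a tamoxifen-inducible recombinase that is made where Hcn4 is active, and a Rosa-tdTomato reporter; the mutant group was Isl1f/f and the control group Isl1+/+. Tamoxifen was given to both groups at E10.5, and nodes were taken 36 hours later, at a stage labelled E12.5. Nodes of the same genotype were pooled, CD31-positive cells were removed with beads and Tomato-positive cells were sorted, so each group is 1 library from pooled embryos, and recombination is restricted to cells with Hcn4 activity.

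Complex II oxidises succinate and hands the electrons to ubiquinone, complex III passes them on to cytochrome c, and complex IV, cytochrome c oxidase, gives them to oxygen. Complexes III and IV pump protons, and complex V, the ATP synthase, uses the proton gradient to make ATP. Heart muscle is rich in these enzymes, and several small subunits of complex IV have a second gene whose product replaces the general isoform in adult heart and skeletal muscle.

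The libraries held 110117186 control reads and 119018888 mutant reads, as worked out from the steps in the values. Values are RPKM, reads scaled by counted exon length and by library size. With 1 library per group there is no replicate error and no test. Differences are given by size, with exact 95% intervals that cover counting error only and take each read as an independent molecule. Read pairs and PCR copies are not independent, so the intervals can be too narrow even for counting error. Isl1 had 7.65 RPKM in control and 1.52 RPKM in mutant cells, 5.02-fold lower (interval 4.53 to 5.56). The labels do not say which exons are deleted, and reads outside them could remain. The 8 node markers checked, Isl1 among them, were detected in both libraries, and all were lower in mutant cells, beside 67.2% of all genes. The 7 without Isl1 had a median log2 ratio of -0.95 and a summed level of 65.4 RPKM in control and 31.0 RPKM in mutant cells.

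Subunit genes of these complexes were higher in the mutant library in 36 of 42 cases, or 33 when each library was rescaled to the same total, which turned Sdha, Sdhc and Atp5f1. Beside these counts, 32.8% of all genes were higher, or 28.6% after the rescaling. The differences were modest. Complexes III and IV carried the larger ones, complex V smaller ones, and 3 of the 4 genes of complex II lay close to equality. Of the 8 assembly genes 2 were higher and 6 lower, a share near that of all genes, of which 67.2% were lower, and 4 of 8 were higher once the median of genes of the same level was subtracted. Genes of the muscle isoforms Cox6a2 and Cox7a1 were higher by more than the genes of their general counterparts. The same held for Cox4i2, a lung isoform gene, while Cox6b2, a testis isoform gene, was lower.

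Over all 55 members, 40 were higher and 15 lower, beside 32.8% of all genes of the table higher. With the median ratio of genes at 5 RPKM or more subtracted, 47 members were higher and 39.1% of all genes, and with that of genes of the same level subtracted, 48 members and 49.99% of genes. The median log2 ratio of RPKM + 1 was 0.20 over the members and 0.28 over the subunits, beside -0.18 over all genes. The ratio moved with level, so well expressed genes are the closer comparison. Of the 309 genes with a geometric mean of at least 100 RPKM, 63.8% were higher, with a median of 0.09. All 13 members at that level were higher, with a median of 0.20.

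A difference was counted by size when the mutant value was at least 25% higher on the RPKM + 1 scale, or lower by the same factor, and the gene reached 5 RPKM in at least 1 library, which 40 members did. Of these, 17 were higher by size, beside 11.5% of all genes at that level, and 1, Sdhaf2, was lower by size, beside 27.2%. At 100 RPKM or more, 3 of 13 members (Cyc1, Cycs and Atp5d) were higher by size, beside 23.9% of genes there, which is close to the background. Among members at 5 RPKM or more, 0 were 2-fold higher, beside 1.00% of genes. Counting intervals lay wholly above equality for 40 of 55 members, wholly below it for 8, and included it for 7. The share of all genes with such intervals was not worked out, so this count has no background. At this depth a ratio of 1.02, that of Sdha, already has an interval wholly above equality (1.01 to 1.04).

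**Figure D1:**
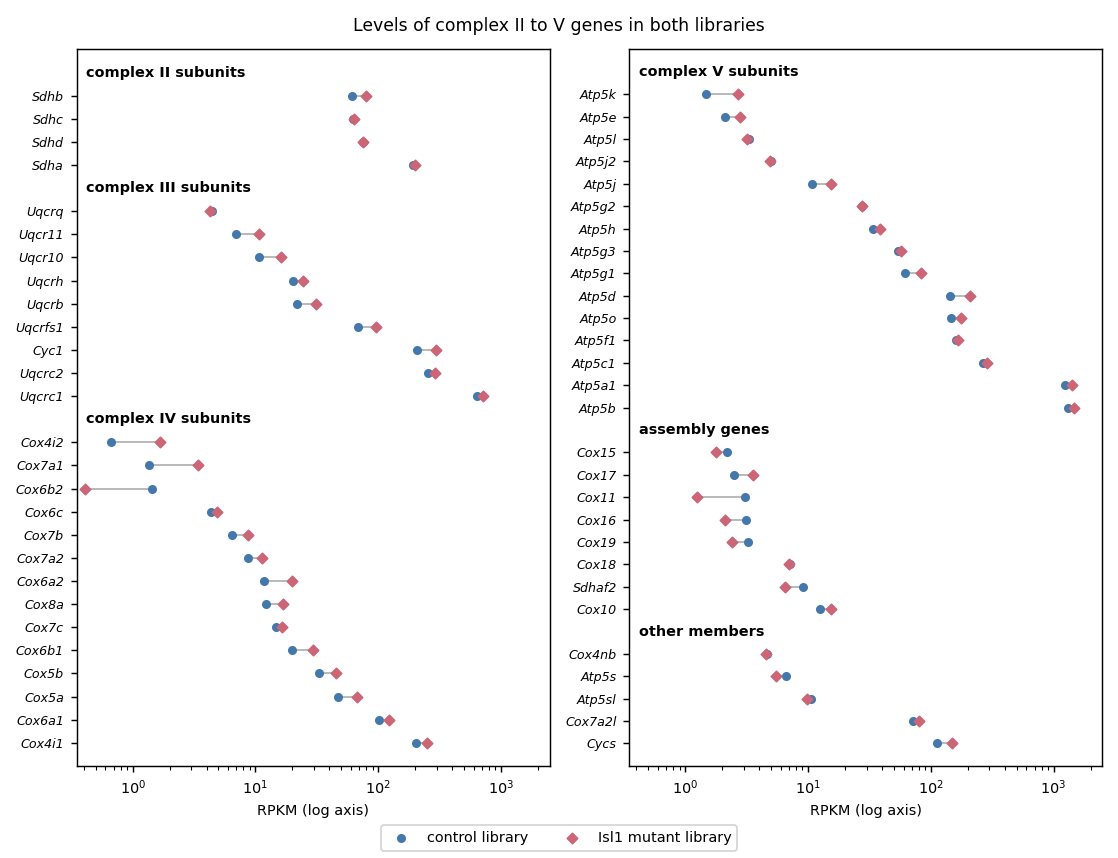
RPKM of each of the 55 genes on a log axis, with a circle for the control library, a diamond for the Isl1 mutant library and a grey line joining them. The diamond lies to the right of the circle for 36 of 42 subunit genes, and the pairs of Cox4i2, Cox7a1, Cox6b2 and Cox11 are the farthest apart.

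In complex II, only the gene of the iron-sulfur subunit differed by size. Sdhb (mm9 chromosome 4, 140517118 to 140535108) had 61.8 RPKM in control and 79.8 RPKM in mutant cells, 1.29-fold higher (interval 1.27 to 1.32). Sdha, the gene of the flavoprotein that oxidises succinate, stood at 194 and 199 RPKM, a ratio of 1.02. Sdhc and Sdhd, the genes of both membrane anchors, had ratios of 1.02 (62.3 and 63.4 RPKM) and 0.995 (75.5 and 75.1 RPKM), and the interval for Sdhd, 0.959 to 1.03, included equality. Sdhaf2, whose product helps to attach the flavin to Sdha, went the other way, at 9.07 and 6.54 RPKM, 1.39-fold lower (interval 1.32 to 1.46). The median log2 ratio over the 4 subunit genes was 0.030, and -0.030 when each library was rescaled to the same total.

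In complex III, 8 of 9 subunit genes were higher, beside 32.8% of all genes. By size 5 of the 8 genes at 5 RPKM or more were higher, beside 11.5% of all genes at that level. The median log2 ratio was 0.46. The genes of both subunits that carry the electrons onward were among them. Cyc1, the gene of cytochrome c1 (chromosome 15, 76173953 to 76176364), had 209 RPKM in control and 295 RPKM in mutant cells, 1.41-fold higher (interval 1.40 to 1.43). Uqcrfs1, the gene of the Rieske iron-sulfur protein, stood at 69.0 and 95.4 RPKM, 1.38-fold higher.

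The genes of the large core proteins, Uqcrc1 and Uqcrc2, differed less. Uqcrc1 stood at 644 and 722 RPKM, a ratio of 1.12, and Uqcrc2 at 254 and 291 RPKM, a ratio of 1.15. Among the genes of small accessory subunits, Uqcr11 had the highest ratio of the complex, at 6.91 and 10.6 RPKM (1.53-fold, interval 1.36 to 1.73), followed by Uqcr10 at 10.8 and 16.2 RPKM (1.50-fold, interval 1.35 to 1.67). Those 2 intervals overlap, so their order is within counting error. Uqcrb stood at 21.8 and 31.4 RPKM, 1.44-fold higher, and Uqcrh, the gene of the acidic hinge protein, at 20.3 and 24.6 RPKM, 1.21-fold higher. Uqcrq was the lowest, at 4.46 and 4.30 RPKM, and its interval of 0.897 to 1.04 included equality.

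Cycs, whose product carries electrons from complex III to complex IV, stood at 112 and 147 RPKM, 1.32-fold higher (interval 1.31 to 1.34). It thus differed in the same direction as Cyc1, the gene of its electron donor.

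In complex IV, 13 of 14 subunit genes were higher, beside 32.8% of all genes. By size 7 of the 10 genes at 5 RPKM or more were higher, beside 11.5% of all genes at that level. The median log2 ratio was 0.41. Cox5a and Cox5b, which encode subunits on the matrix side, stood at 47.3 and 67.3 RPKM (1.42-fold) and at 33.3 and 45.6 RPKM (1.37-fold). Cox6b1, whose product faces the intermembrane space, stood at 19.8 and 29.2 RPKM, 1.47-fold higher (interval 1.37 to 1.59). Cox8a, the gene of the general COX8 isoform, was 1.38-fold higher (12.1 and 16.7 RPKM) and Cox7b 1.35-fold higher (6.41 and 8.66 RPKM).

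The smallest differences among the higher genes were those of Cox6c, at 4.35 and 4.88 RPKM, and Cox7c, at 14.7 and 16.4 RPKM, both with a ratio of 1.12. Cox7a2l, which helps to join complexes III and IV, had a ratio of 1.13 (71.02 and 80.04 RPKM).

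**Figure D2:**
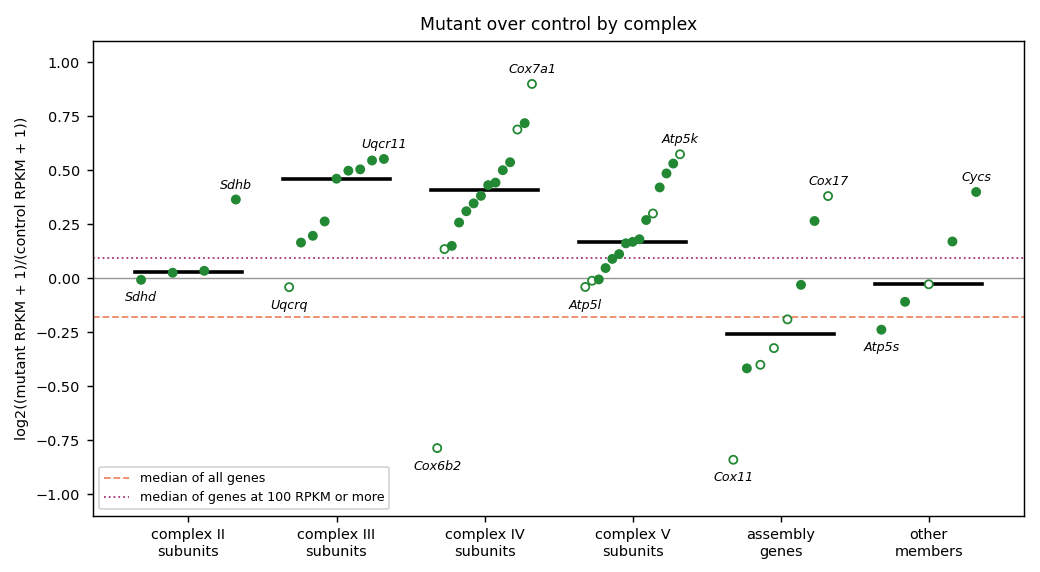
The log2 ratio of mutant over control RPKM + 1 for each gene, by complex and for assembly genes and other members, with a bar at the median of each group, filled points for genes at 5 RPKM or more in a library and the genes at both ends named. Medians are 0.030, 0.46, 0.41 and 0.17 for subunits of complexes II, III, IV and V and -0.26 for assembly genes, beside lines at -0.18 for all genes and 0.09 for genes at 100 RPKM or more.

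Muscle and general isoforms of the same subunit could be compared for COX6A and COX7A. Cox6a2, the gene of the heart and skeletal muscle isoform (chromosome 7, 135348950 to 135349880), had 11.7 RPKM in control and 19.9 RPKM in mutant cells, 1.70-fold higher (interval 1.56 to 1.85). Cox6a1, its general counterpart (chromosome 5, 115795651 to 115798990), stood at 102 and 123 RPKM, 1.20-fold higher (interval 1.16 to 1.23). The fold of the muscle gene was thus 1.42 times that of the general gene (interval 1.30 to 1.55). Per 100 RPKM of Cox6a1 there were 11.4 RPKM of Cox6a2 in control and 16.2 RPKM in mutant cells, so the general isoform remained the more abundant in both.

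Cox7a1, the muscle gene of COX7A (chromosome 7, 30969190 to 30971047), stood at 1.36 and 3.41 RPKM, 2.50-fold higher. This value rests on at least 27 control reads and 73 mutant reads, and its interval ran from 1.59 to 4.05. Cox7a2, its general counterpart (chromosome 9, 79603048 to 79607660), stood at 8.63 and 11.2 RPKM, 1.30-fold higher (interval 1.19 to 1.43). The fold of the muscle gene was 1.92 times that of the general gene (interval 1.21 to 3.14). On the log2 scale of RPKM + 1 the muscle gene lay 0.46 above the general gene for COX6A and 0.55 above it for COX7A. The median of both differences, 0.51, was 0.72 with no pseudocount and 0.24 with a pseudocount of 5. Cox7a1 is under 5 RPKM in both libraries and so is not counted by size. Genes with a geometric mean between 2 and 5 RPKM had a median of -0.24, while Cox7a1 lay at 0.90.

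Other subunits of complex IV have isoforms of other tissues. Cox4i2, known from lung and from cells short of oxygen, stood at 0.666 and 1.69 RPKM, 2.53-fold higher (interval 1.81 to 3.59, from at least 49 and 134 reads). Cox4i1, the general gene, stood at 202 and 251 RPKM, 1.24-fold higher, so that in the mutant library there was 0.671 RPKM of Cox4i2 per 100 RPKM of Cox4i1. The fold of Cox4i2 was 2.04 times that of Cox4i1 (interval 1.46 to 2.89), so a larger fold than the general gene was not limited to the muscle isoforms. Cox6b2, a testis isoform gene, was the only subunit gene of complex IV that was lower, at 1.43 and 0.411 RPKM, 3.49-fold lower with an interval of 1.84 to 7.09 (at least 42 and 13 reads).

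**Figure D3:**
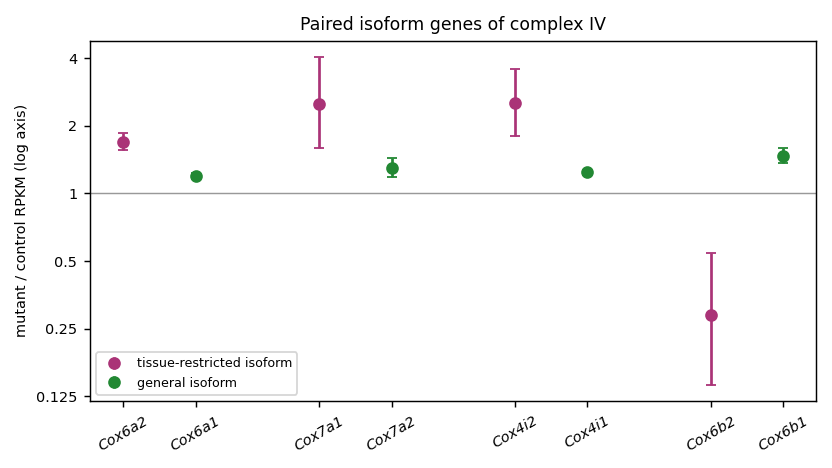
Mutant over control RPKM on a log axis for the 4 pairs of isoform genes of complex IV, with exact 95% counting intervals as bars. The muscle genes Cox6a2 and Cox7a1, at 1.70 and 2.50, lie above their general counterparts, at 1.20 and 1.30. Cox4i2, at 2.53, also lies above Cox4i1, at 1.24, while Cox6b2 lies below Cox6b1.

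In complex V, 12 of 15 subunit genes were higher, beside 32.8% of all genes. By size 3 of the 11 at 5 RPKM or more (Atp5d, Atp5g1 and Atp5j) were higher. Of all genes, 11.5% were higher by size at 5 RPKM or more and 23.9% at 100 RPKM or more. At the second level Atp5d was the only gene of complex V that was higher by size. The median log2 ratio was 0.17. It was 0.11 with each library rescaled to the same total, and 0.057 with the median of genes of the same level and transcript length subtracted, where Atp5o, Atp5f1 and Atp5g3 turned lower. Members are among the genes behind those medians, and Atp5c1 lay exactly at that of its own group, so this value is in part subtracted from itself. The genes of the catalytic head had the highest deposited RPKM of the members, although per length of transcript Uqcrc1 (824 in control) lay above Atp5a1 (732). Atp5b, the gene of the catalytic beta subunit, stood at 1316 and 1479 RPKM and Atp5a1, the gene of the alpha subunit, at 1238 and 1403 RPKM, with ratios of 1.12 and 1.13. Atp5c1, the gene of the gamma subunit of the rotating shaft, stood at 268 and 289 RPKM, a ratio of 1.08. Their log2 ratios lay between 0.11 and 0.18, beside the median of 0.09 for genes at 100 RPKM or more. Atp5d, the gene of the delta subunit at the foot of the shaft (chromosome 10, 79601377 to 79608563), stood apart from them at 144 and 209 RPKM, 1.45-fold higher (interval 1.42 to 1.47). Atp5e, the gene of the epsilon subunit beside it, stood at 2.10 and 2.82 RPKM, 1.34-fold higher.

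The 3 genes of subunit c encode the same mature ring protein with different import sequences, and the counting interval of Atp5g1 lay above those of the others. Atp5g1 stood at 62.1 and 83.4 RPKM, 1.34-fold higher (interval 1.30 to 1.39). Atp5g2 stood at 27.7 and 27.6 RPKM, with an interval of 0.935 to 1.06 that included equality, and Atp5g3 at 53.7 and 57.2 RPKM, a ratio of 1.07. Atp5g1 alone of the 3 was thus counted as higher by size.

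Among the genes of the stalk that holds the head still, Atp5j, the gene of coupling factor 6, stood at 10.7 and 15.3 RPKM, 1.44-fold higher (interval 1.38 to 1.50). Atp5o, the gene of the subunit that confers oligomycin sensitivity, was 1.21-fold higher (146 and 176 RPKM). Atp5h, the gene of subunit d, had a ratio of 1.12 (34.1 and 38.2 RPKM), and Atp5f1, the gene of subunit b, 1.03 (161 and 166 RPKM). The genes of the small membrane subunits e, f and g were all under 5 RPKM. Atp5k, the gene of subunit e, stood at 1.48 and 2.69 RPKM, 1.82-fold higher, with an interval of 1.41 to 2.37 that overlaps those of Atp5d and Atp5j. Atp5j2 (4.95 and 4.90 RPKM) and Atp5l (3.30 and 3.18 RPKM) had intervals that included equality.

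Among the assembly genes of complex IV, whose products serve mainly to insert its copper and heme, 5 of 7 were lower, near the 67.2% of all genes. With the median of genes of the same level subtracted 3 of 7 were lower, as Cox15 (0.072) and Cox18 (0.11) turned. Cox11, a copper carrier gene, stood at 3.04 and 1.26 RPKM, 2.42-fold lower (interval 2.06 to 2.86). Cox19 and Cox16 were 1.36-fold lower (3.26 and 2.40 RPKM) and 1.47-fold lower (3.10 and 2.11 RPKM). Cox17, whose product brings copper to the other carriers, went the other way at 2.52 and 3.58 RPKM, 1.42-fold higher (interval 1.17 to 1.73). Of both heme A genes, Cox10 had a ratio of 1.22 (12.6 and 15.4 RPKM) and Cox15 was 1.22-fold lower (2.17 and 1.78 RPKM). Cox18, whose product inserts a core subunit into the membrane, stood at 7.18 and 7.01 RPKM, and its interval included equality.

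The median over the 8 assembly genes was -0.26. Of them, 5 lie under 5 RPKM in both libraries, where genes as a whole were lower, with medians of -0.35 below 2 RPKM and -0.24 between 2 and 5 RPKM. Between 5 and 20 RPKM all genes had a median of -0.13, and 35.2% were higher. The 8 subunit genes there were all higher, with a median of 0.46. Between 2 and 5 RPKM 3 of 6 subunit genes were higher, with a median of 0.06, beside 28.4% of all genes. Below 2 RPKM it was 2 of 3, with a median of 0.57, beside 25.5%. Atp5s and Atp5sl were 1.21-fold and 1.09-fold lower (6.65 and 5.49 RPKM, 10.6 and 9.75 RPKM). Cox4nb, which encodes a subunit of a membrane complex of the endoplasmic reticulum and lies beside Cox4i1, stood at 4.64 and 4.53 RPKM.

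Other genes of the pathway were read from lists of known members. Of 27 listed assembly and accessory genes outside the naming rule, 17 were measured, with 8 higher, 9 lower and a median log2 ratio of -0.05. By size, 3 of the 12 at 5 RPKM or more were higher and 2 lower, beside 11.5% and 27.2% of all genes there. Lrpprc, whose product stabilises mitochondrial messenger RNAs, was 1.72-fold lower (11.3 and 6.55 RPKM), and Surf1, a complex IV assembly gene, 1.33-fold lower (11.8 and 8.88 RPKM). Ndufa4, now counted with complex IV, was 1.50-fold higher (35.8 and 53.7 RPKM), and Usmg5, a small ATP synthase subunit gene, 1.44-fold higher (5.90 and 8.53 RPKM). Tmem70, an ATP synthase assembly gene, was the other higher one (13.2 and 16.8 RPKM).

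Of 16 listed regulators of mitochondrial genes, 13 were measured, with 4 higher, 9 lower and a median of -0.16, near that of all genes. The coactivator genes Ppargc1b and Ppargc1a stood at 5.47 and 9.10 RPKM (1.66-fold higher) and at 21.8 and 27.3 RPKM, the second with a log2 ratio of 0.31, just short of the size counted. Pprc1, a related coactivator gene, and Polrmt, the mitochondrial RNA polymerase gene, were 1.45-fold lower (5.75 and 3.98 RPKM) and 1.44-fold lower (10.98 and 7.60 RPKM). Of 18 genes of other mitochondrial proteins, such as import, channel and chaperone proteins, 15 were higher, with a median of 0.14. Beside them, 32.8% of all genes and 46.1% of genes between 20 and 100 RPKM were higher. By size 3 of the 16 at 5 RPKM or more (Hspe1, Immt and Hspa9) were higher, beside 11.5% of all genes there. The median of the 18 genes lies below the 0.28 of the subunit genes.

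Markers of the cell types in the sort were set beside these values. Of 17 heart muscle genes, 13 were higher, beside 32.8% of all genes and 63.8% of genes at 100 RPKM or more. By size 7 were higher and 2 lower, beside 11.5% and 27.2% of genes at 5 RPKM or more. At 100 RPKM or more 23.9% of genes were higher by size. The median log2 ratio was 0.28 for heart muscle genes and for subunit genes, at median control levels of 298 and 30.5 RPKM. Among the heart muscle genes were the contractile genes Actc1 (5374 and 8539 RPKM) and Myl7 (1960.2 and 3010.1 RPKM), which were higher. Ryr2, the calcium release channel gene, was lower (10.4 and 6.72 RPKM). Their summed level was 15076 RPKM for control and 20887 RPKM for mutant. All measured markers of 4 other cell types were lower, beside 67.2% of all genes: erythroid genes in 11 of 11 (summed level 416 and 71.9 RPKM), macrophage genes in 8 of 8 (43.8 and 8.19 RPKM), fibroblast genes in 10 of 10 (475 and 234 RPKM) and endothelial genes in 6 of 6 (21.4 and 10.03 RPKM). Epicardial genes were higher in 3 of 6, with a median log2 ratio of -0.036. Their summed level was 83.2 and 102 RPKM, and the gene that made it higher was Krt19 (9.77 and 28.8 RPKM). None of the measured markers was at 0 in either library. The part of these cells in the ratios of the complexes was not tested, and fewer cells of a type and less RNA per cell cannot be told apart in pooled cells.

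**Figure D4:**
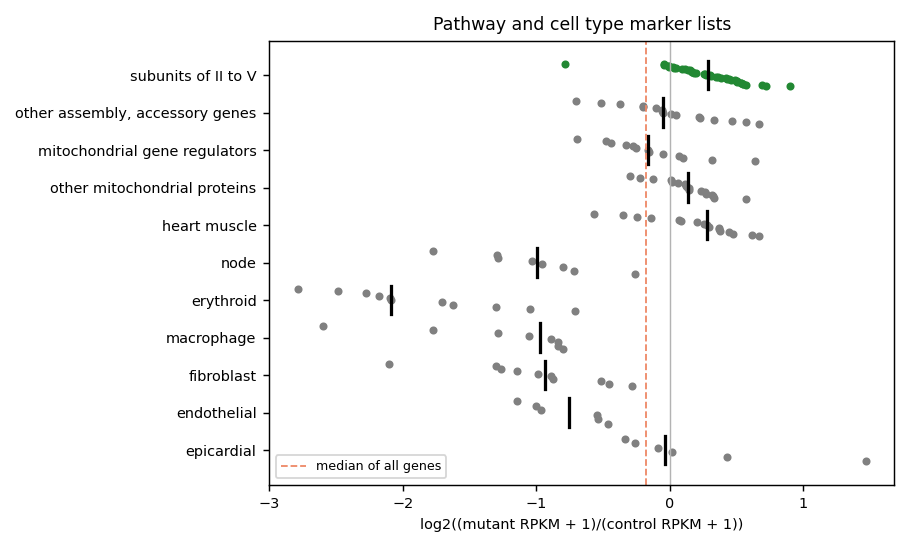
The log2 ratio of mutant over control RPKM + 1 for the 42 subunit genes and for the pathway and cell type marker lists, 1 point per gene, with a bar at each median and a dashed line at the median of all genes, -0.18. The medians of subunit genes and heart muscle genes are both 0.28, at median control levels of 30.5 and 298 RPKM. The erythroid, macrophage, fibroblast and endothelial points all lie below 0.

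Many of these genes have short transcripts, and the ratio was set against transcript length. The 12 subunit genes with transcripts under 600 bases had a median of 0.37 and the 14 between 600 and 1000 bases a median of 0.33. All genes that reached 5 RPKM in each library had medians of -0.029 and 0.11 in those ranges and of -0.19 at 4000 bases or more, where Atp5g1, the only subunit gene, lay at 0.42. Between 1000 and 2000 bases the 12 subunit genes had a median of 0.18, beside -0.04 for all genes, and the 3 between 2000 and 4000 bases 0.034, beside -0.07. The subunit median thus lay above that of genes of like length in each range, but subunit genes entered at any level. In the shortest range 7 of the 12 reached 5 RPKM in a library. The longest range rests on Atp5g1 alone. The exon length worked out from its values was at least 777 bases beside a listed transcript of 4715 bases, so its range is uncertain. Over the 42 subunit genes, Spearman's rho of ratio and length was -0.36, and over 5167 genes it was -0.21, as a description, since the genes share both libraries.

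**Figure D5:**
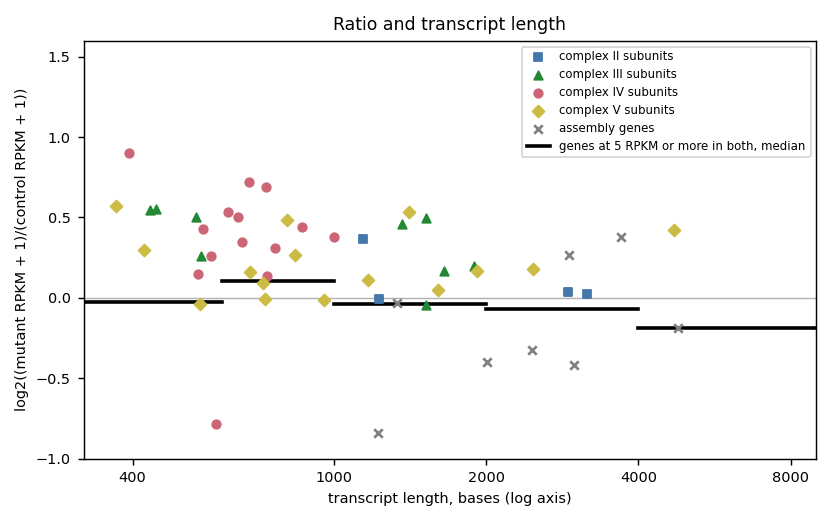
The log2 ratio of mutant over control RPKM + 1 against transcript length on a log axis for subunit and assembly genes, with black bars at the medians of all genes that reached 5 RPKM in each library in 5 length ranges. Below the bar of their range lie 6 of 42 subunit genes and 5 of 8 assembly genes. Atp5g1 and Cox17 are drawn at 4715 and 3690 bases, although their counted exon lengths were at least 777 and 639 bases.

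Levels of different genes are hard to compare here. The exon length behind the values, worked out from their steps, was over 2 times the transcript length for 11 of 42 subunit genes. For Cox6c it was at least 9113 bases beside a transcript of 738 bases, for Atp5l 3885 beside 544 and for Atp5e 3282 beside 421. The low RPKM of these genes is thus understated per base of transcript, if all counted reads come from it. For Atp5g1 and Cox17 the listed transcript was the longer, at 4715 bases beside at least 777 and 3690 beside at least 639. The plain ratio of both libraries is not touched by the length. The ratio of RPKM + 1 is made smaller by a counted length above that of the transcript, as for Atp5e (0.30, and 0.42 with no pseudocount). Genes such as Cox6c stay under 5 RPKM for the same reason, with 53.7 control RPKM per length of transcript if all reads lie in it. Near-identical copies in other transcripts were found for 8 subunit genes, including Atp5l with 9 copies and Uqcrb and Atp5h with 3 each, and reads may be divided among them. These 8 genes had a median log2 ratio of 0.16, and the other 34 had 0.33. Of the 55 members, 19 overlap another gene of the table, such as Cox6a2 with Itgad, Cox4i2 with Bcl2l1 and Atp5j with Gabpa on the other strand, and Cox16 with Synj2bp and Cox17 with Popdc2 on the same strand. The listed span of Atp5o overlaps 12 genes. Because strand is not stated, their shared reads cannot be separated.

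Promoters were read because most subunit genes differed in the same direction while a few lay at equality. RefSeq windows from 250 bases before to 50 bases after the start (GRCm38.p6) matched 42 members, 32 of them subunit genes. Both strands were searched for the letters of sites bound by nuclear respiratory factors and related regulators, and matches may overlap. The NRF1 letters, GCGC and TGCGC with any 1 base between them, were in 28.6% of 35 subunit windows, beside 4.60% of all 32851 windows. The GABPA letters CCGGAAG were in 34.3%, beside 8.86%, and the oestrogen-related receptor letters AAGGTCA in 14.3%, beside 4.72%. YY1 letters (AANATGGC) were in 14.3% beside 6.05%, letters of the hypoxia site (ACGTG) in 28.6% beside 19.6%, MEF2 letters (CTA and TAG with any 4 bases between them) in 2.86% beside 3.69%, and E-box letters (CANNTG) in 65.7% beside 72.3%. The windows of all genes had a median GC content of 52.7% and were matched neither for GC nor for expression. NRF1 and GABPA letters are mostly G and C, and the part of GC content in these shares was not tested.

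Ratios were then set beside the letters. The 10 subunit genes with NRF1 letters had a median log2 ratio of 0.14 and the 22 without them 0.40. With GABPA letters the median was 0.33 in 12 genes, and without them 0.22 in 20. For AAGGTCA it was 0.089 in 5 genes with the letters and 0.35 in 27 without, and for YY1 0.17 in 5 and 0.30 in 27. For the E-box it was 0.32 in 22 and 0.21 in 10, for the hypoxia site 0.25 in 10 and 0.28 in 22, and the 1 gene with MEF2 letters lay at 0.44, beside 0.27 in 31. Ratios in the groups overlapped for each set. Of the sequences below, Cox7a1 and Cox7a2 are the muscle and general genes of 1 subunit, and Atp5k and Sdhd hold the same 3 sets of letters, with ratios of 1.82 and 0.995. Capitals mark matches to any set other than the E-box. Windows are at chr7:30183921-30184220 (plus strand) for Cox7a1, chr9:79759804-79760103 (minus) for Cox7a2, chr5:108434350-108434649 (minus) for Atp5k and chr9:50603800-50604099 (minus) for Sdhd.
Cox7a1: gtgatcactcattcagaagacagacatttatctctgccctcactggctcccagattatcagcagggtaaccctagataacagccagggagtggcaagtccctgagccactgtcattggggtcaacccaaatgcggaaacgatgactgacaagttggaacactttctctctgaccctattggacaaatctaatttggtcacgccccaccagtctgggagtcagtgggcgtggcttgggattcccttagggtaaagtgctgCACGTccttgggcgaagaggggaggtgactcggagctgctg
Cox7a2: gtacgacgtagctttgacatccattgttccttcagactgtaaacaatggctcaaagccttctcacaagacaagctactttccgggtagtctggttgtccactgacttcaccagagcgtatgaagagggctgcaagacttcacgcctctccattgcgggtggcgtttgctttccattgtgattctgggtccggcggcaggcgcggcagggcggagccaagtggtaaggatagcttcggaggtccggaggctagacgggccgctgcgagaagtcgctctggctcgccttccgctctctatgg
Atp5k: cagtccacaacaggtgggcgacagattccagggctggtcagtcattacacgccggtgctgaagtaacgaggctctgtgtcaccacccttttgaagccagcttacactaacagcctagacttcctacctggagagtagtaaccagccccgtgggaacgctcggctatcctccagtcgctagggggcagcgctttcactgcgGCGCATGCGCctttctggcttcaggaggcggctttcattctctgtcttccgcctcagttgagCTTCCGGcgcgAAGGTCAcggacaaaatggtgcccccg
Sdhd: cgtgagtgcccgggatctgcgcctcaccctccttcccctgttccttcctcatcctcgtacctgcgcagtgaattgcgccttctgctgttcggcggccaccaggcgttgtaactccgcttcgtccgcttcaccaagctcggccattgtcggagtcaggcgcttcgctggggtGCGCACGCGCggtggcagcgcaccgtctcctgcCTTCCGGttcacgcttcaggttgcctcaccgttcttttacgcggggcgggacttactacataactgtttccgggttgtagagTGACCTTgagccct
The window of Cox7a1 held the hypoxia letters 1 time, and that of Cox7a2 held none of the marked sets. In Atp5k and Sdhd the NRF1, GABPA and AAGGTCA letters were each found 1 time. A match is a run of letters and not a bound site.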

How the data were processed

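RNA of sorted Tomato-positive node cells was sequenced in 1 control and 1 Isl1 mutant library. Per the labels' protocols, poly(A) RNA from 10 ng of total RNA was made into SMARTer cDNA libraries and read in 90 bp pairs. Per the submitters' processing notes, Trim Galore, FastQC, TopHat2, Bowtie2 and mm9 were used; no source used here names the tool that made the gene table or its strand setting. The deposited values are RPKM by the authors over constitutive exons, per the file headers, a unit read from the values: value times length came out whole, within 0.01 reads, in all 287 small RNA genes tested for control and in 279 for mutant. The length recovered for 11 of 42 subunit genes was over 2 times the transcript, which its constitutive exons would not reach, so the region counted is not settled. The authors' deposited log2 fold matches the ratio of both values within 1.89e-07. The signed fold, a score by the authors, was not used.

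Ratios are log2((mutant RPKM + 1)/(control RPKM + 1)), which understates low genes; printed folds have no pseudocount. Whole reads and exon lengths were recovered as the smallest numbers that give both values within 0.0002, so true numbers may be multiples. Intervals are conditional binomial (Clopper-Pearson), and for pairs conditional odds ratios. Transcript lengths are the longest principal transcript in GENCODE M21, matched by Ensembl identifier for 12069 genes (96.1%), and copies are BLAST+ 2.17.0 matches of 95% identity over 50% of the transcript. The table holds genes reaching 1 RPKM in a library. Scripts (Python 3.11.15, scipy 1.17.1) were tested on simulated data. All members may be named; list genes are up to 4 of the largest ratios at 5 RPKM, with Tmem70 named outside that rule to complete a count. Members and lists were chosen with earlier results of these data known. Roles of Cox4nb, the COX4 and COX6B pairs and 2 alternatives, a correction for level with transcript length and the removal of members with copies, were added after seeing the data.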

Additional observations from a re-analysis of the deposited data

How the results depend on the processing

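No paired analysis was possible because each group has 1 library. For the same reason no replicate could be left out. Medians for complexes II, III, IV and V are given in that order. With pseudocount 0 these medians were 0.030, 0.47, 0.44 and 0.17, and the muscle minus general difference was 0.72. With a pseudocount of 5 the member median was 0.18, complexes III, IV and V were at 0.39, 0.28 and 0.15, and the muscle minus general difference fell to 0.24 from 0.51, which follows from the low level of Cox7a1. Subtracting the median of genes at 5 RPKM or more, -0.07, gave 0.26 for members and 0.10, 0.53 and 0.24 for complexes II, III and V. Rescaling each library to a total of 1000000 gave 0.14 for members and 0.41 and 0.11 for complexes III and V. A total over nuclear genes gave identical values throughout and is not a second check. The rescaling turned complex II to -0.030, and so the sign for complex II depends on the scaling. Subtracting the median of genes of the same level left 48 of 55 members higher. Doing so by level and transcript length gave 0.17 for members, 0.39 for complex III and 0.057 for complex V, with 41 members higher and 16 higher by size, beside 15.5% of all genes at 5 RPKM. The genes behind the subtracted medians include the members.

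Entry at 20 RPKM left 25 higher members, 10 of them by size, with 0.26 for members and 0.36 for complex III. By geometric mean, 12 of 14 members between 20 and 100 RPKM were higher, beside 46.1% of genes there. At 100 RPKM or more it was 13 of 13, beside 63.8%. Subunits alone gave 0.28. Without the 19 of 55 members that overlap another gene 25 were higher, beside 32.8% of all genes, and complex V was at 0.16. Without members with a near-identical copy the median was 0.26, and 0.36 for complex III. The counts of higher members fell because fewer genes entered. Means in place of medians gave 0.10, 0.35 and 0.22 for complexes II, III and V. Of the single genes counted by size, 0 turned sign. Depth limits Cox7a1, Cox4i2, Cox6b2 and Atp5k, which rest on few reads.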
